A study of Mus musculus with 4 samples.

Results

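The barrier lipid genes examined here are 33 genes of ceramide, acylceramide, lipoxygenase, lipase, elongase and wax ester metabolism in the skin. They were taken by gene symbol from a fixed list, and no measured value entered that rule. The list itself was drawn up with earlier results of these data known. Each of the 33 was found among the 19938 genes read by a probe set with a single annotated symbol, and each had 1 such probe set. Skin of E16.5 mouse embryos gave the RNA for 4 Affymetrix arrays that read whole transcripts. The Ovol2 BT group had 2 arrays of embryos that carried TRE-Ovol2-Flag, a Flag-tagged Ovol2 transgene under a tetracycline-responsive promoter, together with K5-tTA, a transactivator driven by the promoter of keratin 5 which is active in basal keratinocytes. The control group had 2 arrays of embryos that carried TRE-Ovol2-Flag alone or were wild type. Every array held RNA pooled from 2 mice, and none of the arrays analysed here was labelled as K5-tTA alone. The labels give the strain as FVB/N for both Ovol2 BT arrays and CB6F1 for both control arrays, so genotype and strain cannot be told apart in any difference below, although the growth note speaks of littermates. Per the series design, this age was taken because the skin of both groups still looked much alike.

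The outermost layer of the epidermis keeps water in because its dead cells lie in stacked sheets of ceramides, cholesterol and free fatty acids. Granular keratinocytes make these lipids late in fetal life, pack them as glucosylceramide and sphingomyelin into lamellar bodies, and secrete them for final trimming by enzymes outside the cell. The most skin-specific of them are acylceramides, whose very long fatty acid carries linoleate and is then oxidised by lipoxygenases so that it can be bound to the cell envelope. Inherited loss of many of these enzymes causes ichthyosis in humans. Wax esters and other lipids of sebum are made by related enzymes in sebaceous glands.

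Ovol2, a zinc finger transcription factor of epithelia, had intensities of 7798 and 7949 on the Ovol2 BT arrays and 176 and 297 on the control arrays, which matches the labels on every array. Markers of the labelled tissue were bright on all arrays, with Krt1, a keratin of the spinous layer, between 16298 and 16997 on the Ovol2 BT arrays and between 17561 and 17564 on the control arrays, and the dermal collagen Col1a1 between 11552 and 12246 over the 4 arrays. The sex label, female on every array, was not borne out by both replicates. The Y-linked Eif2s3y read 1339 on Ovol2 BT replicate 1 and 1101 on control replicate 1, against 10.4 on Ovol2 BT replicate 2 and 55.9 on control replicate 2. Ovol2 BT replicate 2 stood apart from the rest, with Pearson's r of 0.930 to Ovol2 BT replicate 1 over the 14953 genes tested, where the control arrays had 0.983 (genes are not independent replicates). Blood and muscle markers also differed within groups. The summed intensity of 5 erythroid markers was 4118 and 15015 on the Ovol2 BT arrays and 3531 and 6942 on the control arrays, and that of 10 skeletal muscle markers was 27974 and 55036 on the Ovol2 BT arrays and 49176 and 28747 on the control arrays. Results are therefore given by array, and with and without an array where it matters.

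Most barrier lipid genes had small differences between Ovol2 BT and control skin, as most genes did. Lipn, a lipase of the uppermost living layers, had the largest difference and was 1.98 higher in Ovol2 BT skin on the log2(intensity + 16) scale (SE 0.37, n = 2 arrays per group). The other members with an unadjusted p under 0.05 were Smpd3, a neutral sphingomyelinase (0.67, SE 0.21), Sptlc3, a subunit of the enzyme that starts sphingolipid synthesis (-0.87, SE 0.22), and Smpd1, the acid sphingomyelinase (-0.22, SE 0.08). No member changed when p was adjusted over all genes tested in limma, where 4 genes (0.0268%) did, and the smallest adjusted p among members was 0.484 for Lipn. Of the 30 members tested, 26 (86.7%) differed by less than 0.5 in either direction, against 90.6% of all genes tested.

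The test was limma's moderated test over the 4 arrays with Benjamini-Hochberg adjustment, on genes whose mean level over the arrays was at least 7.32, the 25th percentile. Elovl3, Awat1 and Awat2 lay under this level and were not tested. At an unadjusted p under 0.05 there were 4 of 30 members (13.3%), against 4.23% of all genes, with 2 higher (2.49% of all genes) and 2 lower (1.74%). Lipn passed the level only through the Ovol2 BT arrays, since its control mean was 6.41, so its presence among the genes tested was tied to its being high in 1 group. Because there were 2 arrays per group, an exact permutation test of a single gene cannot go below p = 0.333.

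**Figure D1:**
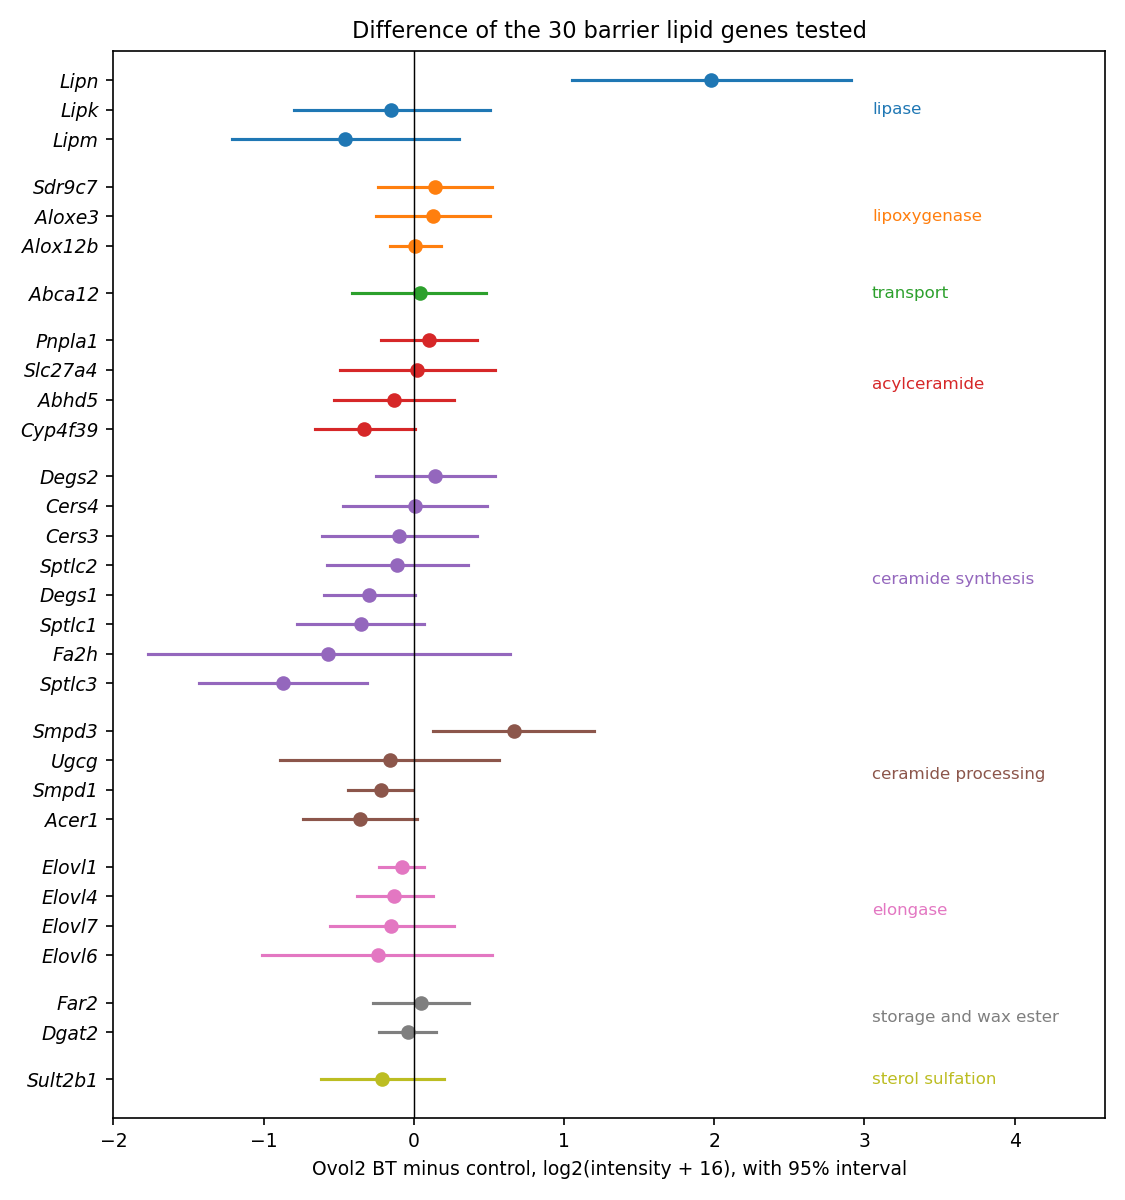
Difference between Ovol2 BT and control skin for the 30 barrier lipid genes tested (x axis, log2(intensity + 16); points, mean of 2 arrays minus mean of 2 arrays; lines, 95% interval of limma), ordered by role. Lipn at 1.98 lies apart, Sptlc3 at -0.87 is the lowest, and the intervals of 26 members include 0.

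The level on each array shows how the 4 members with the smallest p were placed. Lipn had intensities of 418 and 244 on the Ovol2 BT arrays and 99.8 and 46.7 on the control arrays. Smpd3 had 2650 and 2191 on the Ovol2 BT arrays and 1741 and 1312 on the control arrays. For both genes each Ovol2 BT array lay above each control array. Sptlc3 read 1768 and 1288 on the Ovol2 BT arrays and 2499 and 3076 on the control arrays. Smpd1 read 6354 and 6491 on the Ovol2 BT arrays and 7779 and 7238 on the control arrays. Both were lower on each Ovol2 BT array, though the Smpd1 groups lay close together. Levels of different genes are not comparable on these arrays, since each probe set has its own response.

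**Figure D2:**
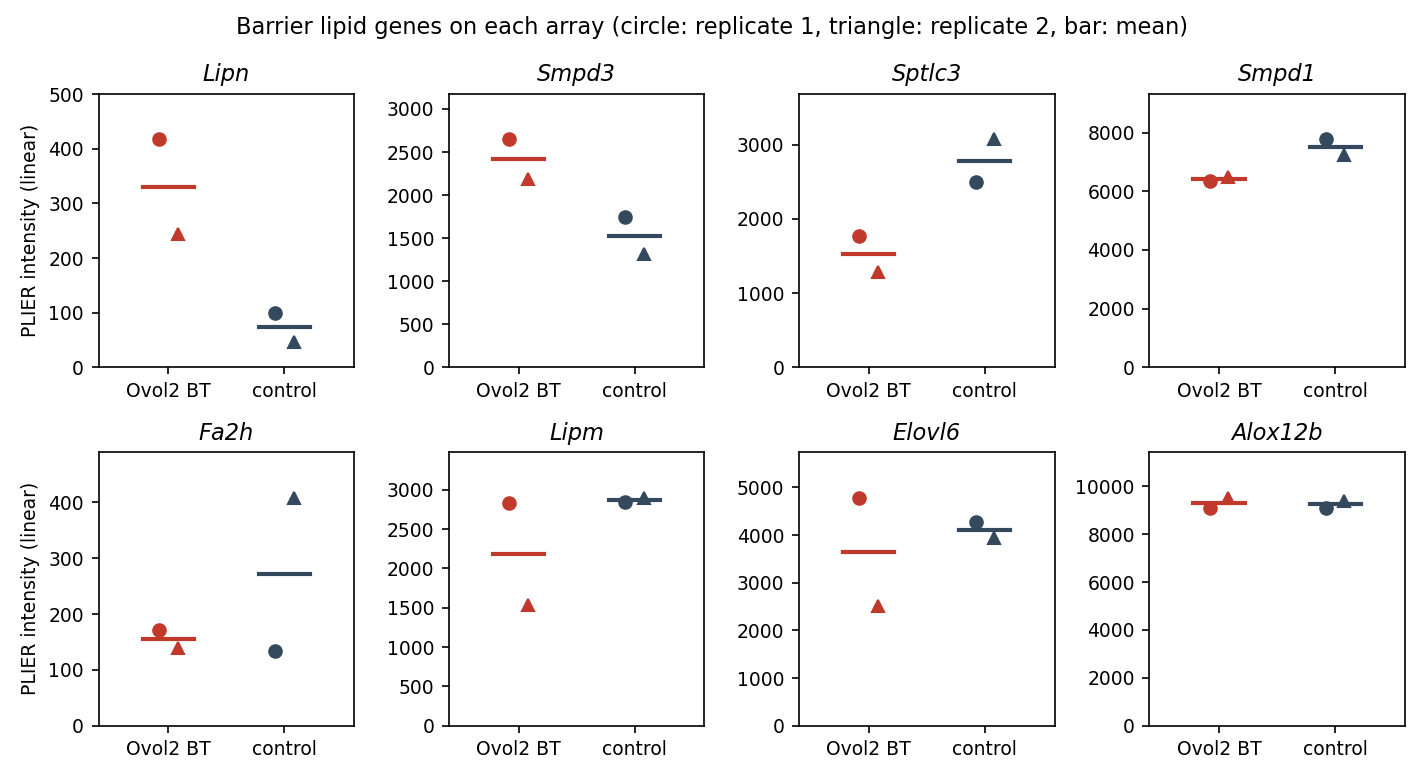
Deposited PLIER intensity (y axis, linear, from 0) of 8 barrier lipid genes on each Ovol2 BT and control array; circles are replicate 1, triangles replicate 2 and bars the mean of 2 arrays. Lipn, Smpd3, Sptlc3 and Smpd1 separate the groups, Lipm and Elovl6 are low on Ovol2 BT replicate 2 alone, Fa2h is high on control replicate 2 alone, and Alox12b lies between 9088 and 9528 on all arrays.

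The promoter sequences of these genes, as far as the RefSeq table held them, are shown so that the members with the largest differences can be set beside their neighbours and beside the binding motifs of Ovo-type factors. The table (GRCm38.p6) matched 27 of the 33 members, with 30 windows in all, since Awat2, Elovl1 and Sult2b1 had 2 each. Aloxe3, Dgat2, Elovl3, Fa2h, Lipk and Smpd3 had no entry and were not searched. The 250 bases before the annotated start of the gene are printed 5′ to 3′ on the strand of the gene. Capitals mark a match to any of 3 motifs, each searched on both strands: CCGTTA and ACNGTTA, sites of the Ovo family, which overlap where a sequence reads ACCGTTA, and TGANTCA, the site of AP-1 factors that act in many epidermal genes. Elovl4 is shown because its window held an Ovo-type match, and the choice of windows to print was made after the search.

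Lipn (chr19:34067108-34067357, plus strand): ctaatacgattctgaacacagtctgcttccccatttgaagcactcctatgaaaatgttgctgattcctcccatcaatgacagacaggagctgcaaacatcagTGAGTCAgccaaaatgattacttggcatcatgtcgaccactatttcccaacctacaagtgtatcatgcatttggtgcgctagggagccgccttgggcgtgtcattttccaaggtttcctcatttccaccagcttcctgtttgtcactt

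Lipm (chr19:34100693-34100942, plus strand): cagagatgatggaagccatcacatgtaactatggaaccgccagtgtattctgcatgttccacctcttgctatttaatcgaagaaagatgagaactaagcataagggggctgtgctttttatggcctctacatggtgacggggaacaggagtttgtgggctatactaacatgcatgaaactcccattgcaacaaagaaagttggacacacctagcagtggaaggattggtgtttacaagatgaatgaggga

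Sptlc3 (chr2:139493663-139493912, plus strand): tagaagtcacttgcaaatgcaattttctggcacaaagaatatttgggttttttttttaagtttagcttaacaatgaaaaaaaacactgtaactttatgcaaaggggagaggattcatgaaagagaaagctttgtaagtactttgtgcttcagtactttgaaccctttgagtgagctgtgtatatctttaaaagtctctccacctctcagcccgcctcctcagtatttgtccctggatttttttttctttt

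Smpd1 (chr7:105554110-105554359, plus strand): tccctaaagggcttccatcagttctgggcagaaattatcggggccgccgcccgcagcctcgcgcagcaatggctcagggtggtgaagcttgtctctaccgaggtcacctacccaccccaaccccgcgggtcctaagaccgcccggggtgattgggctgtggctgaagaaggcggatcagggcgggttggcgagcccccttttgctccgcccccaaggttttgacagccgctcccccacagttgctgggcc

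Elovl4 (chr9:83806306-83806555, minus strand): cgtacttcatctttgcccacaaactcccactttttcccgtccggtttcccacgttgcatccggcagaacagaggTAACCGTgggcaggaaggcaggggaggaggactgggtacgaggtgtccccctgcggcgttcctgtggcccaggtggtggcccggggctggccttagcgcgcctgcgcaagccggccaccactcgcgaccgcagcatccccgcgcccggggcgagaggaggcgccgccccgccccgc

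CCGTTA was in 0 of the 30 member windows and in 2.18% of the 32851 windows of all genes. ACNGTTA was in 1 member window, that of Elovl4, 176 to 170 bases before the start and on the opposite strand, and in 5.05% of all windows. TGANTCA was in 2 member windows, those of Lipn (148 to 142 bases before the start) and Sult2b1, and in 6.75% of all windows. None of the 3 motifs was in the windows of Lipm, Sptlc3 or Smpd1. A match is a description of the letters, not a site.

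The lipases Lipk, Lipn and Lipm, members of the acid lipase family expressed in the upper epidermis, are consecutive protein-coding genes on mouse chromosome 19 in GRCm38.p6. Their values did not go together. Lipn was higher on both Ovol2 BT arrays, with 2.35 for replicate 1 and 1.61 for replicate 2 as the distance to the control mean. Lipm had intensities of 2833 and 1531 on the Ovol2 BT arrays and 2842 and 2900 on the control arrays. Lipk had 2721 and 1652 on the Ovol2 BT arrays and 2364 and 2338 on the control arrays. Both were thus low on Ovol2 BT replicate 2 and level with the controls, or above them, on Ovol2 BT replicate 1, with differences of -0.46 (95% interval -1.21 to 0.30) for Lipm and -0.15 (-0.80 to 0.51) for Lipk. The gene before Lipk in the genome, the gastric lipase Lipf, read between 20.5 and 40.6 on all arrays and was not tested. Ankrd22, the gene after Lipm, differed by -0.06 (95% interval -0.62 to 0.50). These neighbours were picked after their values were seen.

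Lipn was also compared within each replicate number, with 1 array of each group. Between the replicate 1 arrays, which both had Y-linked signal, Lipn differed by 1.91, and between the replicate 2 arrays by 2.05. The part of sex in the Lipn difference was not tested. With Ovol2 BT replicate 1 left out the Lipn difference was 1.61, and with Ovol2 BT replicate 2 left out it was 2.35. Such fits take the spread of the 1 remaining Ovol2 BT array from the controls. These fits and the block fit below used genes filtered on all 4 arrays. Lipn met that filter only through the Ovol2 BT arrays, so the fits give no separate support for it. With control replicate 1 left out (0.0468% of all genes) or control replicate 2 left out (0.0268%), no member passed. With the replicate number as a block, 0.0602% of all genes passed, and of the members Lipn. Over all alternatives that gave a value its adjusted p lay between 0.00773 and 0.773. Periderm markers are genes of the outermost transient fetal layer. Of 9 measured, 8 were higher on both Ovol2 BT arrays, against 20.1% of all genes tested, and Grhl3 was lower on both (-0.14). Their summed intensities were 33910 and 34840 on the Ovol2 BT arrays and 17352 and 15796 on the control arrays. Of 11 granular layer markers, 4 were higher and 1 lower on both Ovol2 BT arrays, against 20.1% and 14.1% of all genes tested. The granular sums, to which the bright Lor, Hrnr and Asprv1 gave most, were 85322 and 82561 on the Ovol2 BT arrays and 86456 and 78531 on the control arrays. At an unadjusted p under 0.05 in limma, 2 granular markers were higher and 1 lower, 27.3% against 4.23% of all genes. These were Flg2 (1.35) and Cdsn (0.31), and Tgm3 (-1.22). The part of either layer in the Lipn difference was not tested. In bulk skin a change in the number of cells of a type and a change in RNA per cell cannot be told apart.

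For the lipoxygenase pathway members the groups overlapped. Alox12b, the R-lipoxygenase that oxidises the linoleate of acylceramides, had intensities of 9100 and 9528 on the Ovol2 BT arrays and 9088 and 9398 on the control arrays. Its difference was 0.01 (95% interval -0.16 to 0.18), among the narrowest intervals of the members. Aloxe3, which isomerises the product of Alox12b, had 5918 and 4653 on the Ovol2 BT arrays and 4488 and 5112 on the control arrays, and the groups overlapped (0.13, 95% interval -0.25 to 0.51). Sdr9c7, a dehydrogenase of the next step, read 4839 and 4120 on the Ovol2 BT arrays and 4452 and 3679 on the control arrays and overlapped as well (0.14, -0.24 to 0.52). The lamellar body transporter Abca12, which loads glucosylceramide, was high on Ovol2 BT replicate 1 and low on replicate 2, at 6539 and 4645, while the control arrays at 5166 and 5595 lay between them. Its difference was 0.04 (95% interval -0.41 to 0.48).

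Of the 4 members that build acylceramide, none had an unadjusted p under 0.05. Cyp4f39, the mouse counterpart of human CYP4F22, which hydroxylates the end of very long fatty acids, came nearest. It had 2911 and 3311 on the Ovol2 BT arrays and 3781 and 4033 on the control arrays, lower on both Ovol2 BT arrays (-0.33, SE 0.13, limma unadjusted p = 0.0526, adjusted p = 0.906). Pnpla1, the transacylase that attaches linoleate, read 3429 and 3817 on the Ovol2 BT arrays and 3348 and 3416 on the control arrays (0.10, 95% interval -0.22 to 0.42). Abhd5, its activator, differed by -0.13 (-0.53 to 0.27), with 1608 and 1607 on the Ovol2 BT arrays and 1726 and 1796 on the control arrays. Slc27a4, a fatty acid transport protein and acyl-CoA synthetase, went opposite ways on the Ovol2 BT arrays, with 2071 and 2663, and the control arrays at 2596 and 2052 covered nearly the same span.

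The ceramide synthesis members had 6 negative and 2 positive differences, where 45.6% of all genes were negative. Of the 8, Sptlc3 had an unadjusted p under 0.05, against 4.23% of all genes. Serine palmitoyltransferase joins serine to a fatty acyl-CoA and is built of Sptlc1 with either Sptlc2 or Sptlc3. Against the control mean, Sptlc3 differed by -0.64 on Ovol2 BT replicate 1 and -1.10 on Ovol2 BT replicate 2 (log2). Within the arrays of one number the difference was -0.50 for replicate 1 and -1.25 for replicate 2. Its adjusted p in limma was 0.789. It was 0.00197 without Ovol2 BT replicate 1, where 16.4% of all genes passed, 0.159 without Ovol2 BT replicate 2, and 1 without either control array. Sptlc1, the shared subunit, had 1480 and 1334 on the Ovol2 BT arrays against 1800 on each control array (-0.35, SE 0.17, limma unadjusted p = 0.0851, adjusted p = 0.906). Sptlc2 read 2541 and 1920 on the Ovol2 BT arrays and 2413 and 2348 on the control arrays, so that the groups overlapped (-0.11, 95% interval -0.58 to 0.36).

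None of the members of later ceramide synthesis steps had an unadjusted p under 0.05. Degs1, the desaturase that makes ceramide from dihydroceramide, read 3617 and 3852 on the Ovol2 BT arrays and 4336 and 4866 on the control arrays, lower on both (-0.30, SE 0.12, limma unadjusted p = 0.0537, adjusted p = 0.906). Degs2, which can hydroxylate the same substrate to phytoceramide, differed by 0.14 (95% interval -0.25 to 0.54). Cers3, the ceramide synthase for very long acyl chains, had 4015 and 2774 on the Ovol2 BT arrays and 3406 and 3735 on the control arrays, with the controls between the Ovol2 BT values. Cers4, another ceramide synthase, differed by 0.01 (95% interval -0.47 to 0.49). Fa2h, the fatty acid hydroxylase, had 172 and 139 on the Ovol2 BT arrays and 134 and 409 on the control arrays. Its difference of -0.57 (SE 0.48) came from control replicate 2, without which it was 0.18, and without control replicate 1 it was -1.32.

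Among the enzymes that turn ceramides over, the sphingomyelinases went opposite ways. These enzymes release ceramide from sphingomyelin, Smpd1 in acidic compartments and Smpd3 at membranes of neutral pH. The difference in Smpd3 was 0.60 between the replicate 1 arrays and 0.73 between the replicate 2 arrays, and that in Smpd1 was -0.29 and -0.16. Neither passed in limma (adjusted p = 0.906 each), and over the alternatives Smpd3 lay between 0.47 and 0.87 and Smpd1 between -0.28 and -0.17. The unadjusted limma p of Smpd1 was 0.0418 in the main fit, 0.0506 with quantile normalisation and 0.254 with median centring. For Smpd3 it was 0.023, 0.0191 and 0.0263. Acer1, the alkaline ceramidase of differentiated epidermis, read 2828 and 3530 on the Ovol2 BT arrays and 4027 and 4073 on the control arrays. It was lower on both Ovol2 BT arrays (-0.36, SE 0.15, limma unadjusted p = 0.0605, adjusted p = 0.906). Ugcg, the glucosylceramide synthase that prepares ceramide for lamellar bodies, had 2933 and 1645 on the Ovol2 BT arrays and 2368 and 2544 on the control arrays, so the direction differed between the Ovol2 BT arrays.

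The elongases, which lengthen fatty acyl chains, had small negative differences in the 4 tested, between -0.24 and -0.08, and none had an unadjusted p under 0.05. Elovl1 and Elovl4, which make very long chains for ceramides, were narrowly measured. Elovl4 had 9786 and 8195 on the Ovol2 BT arrays and 9609 and 9942 on the control arrays (-0.13, 95% interval -0.38 to 0.13). Elovl1 had 9882 and 10142 on the Ovol2 BT arrays and 10596 and 10583 on the control arrays (-0.08, -0.23 to 0.07). Elovl6, which extends palmitate, read 4786 and 2504 on the Ovol2 BT arrays and 4271 and 3931 on the control arrays. It was high on Ovol2 BT replicate 1 and low on replicate 2, as was Elovl7 by a smaller margin (3737 and 2877 on the Ovol2 BT arrays, 3583 and 3677 on the control arrays). Elovl3, an elongase of sebaceous glands and hair follicles, was dim, between 64.9 and 68.6 on all arrays.

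No tested member of lipid storage, wax ester and sterol metabolism had an unadjusted p under 0.05. Dgat2, which makes triglyceride, had 7141 and 7060 on the Ovol2 BT arrays and 7304 and 7300 on the control arrays (-0.04, 95% interval -0.23 to 0.15). Far2, which makes fatty alcohols, had 7068 and 5939 on the Ovol2 BT arrays and 5850 and 6727 on the control arrays, and the groups overlapped (0.05, -0.27 to 0.37). The wax ester synthases of sebaceous glands, Awat1 and Awat2, lay under the level for testing. Awat1 read 94.3 and 94.4 on the Ovol2 BT arrays and 87.0 and 77.9 on the control arrays, and Awat2 read 85.8 and 91.1 on the Ovol2 BT arrays and 99.4 and 112 on the control arrays. Of 5 sebocyte markers tested, 0 were higher and 1 was lower on both Ovol2 BT arrays, against 20.1% and 14.1% of all genes tested. The 6 measured summed to 6221 and 6626 on the Ovol2 BT arrays and 6460 and 6204 on the control arrays. Sult2b1, the cholesterol sulfotransferase, read 2341 and 2937 on the Ovol2 BT arrays and 3015 and 3045 on the control arrays, lower on both Ovol2 BT arrays (-0.21, 95% interval -0.62 to 0.20).

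Taking the 30 tested members by array, 11 were lower and 4 higher on both Ovol2 BT arrays than on both control arrays. This is 36.7% and 13.3% of them, against 14.1% and 20.1% of all genes tested, so that the groups did not overlap for 50% of the members and 34.2% of all genes. Lipn is among the 4, and of the 11 only Sptlc3 and Smpd1 had an unadjusted p under 0.05. With median centring 7 were lower and 3 higher, against 13.0% and 18.1% of all genes, and with quantile normalisation 9 were lower and 3 higher, against 12.9% and 21.6%. The median difference was -0.12 over the members tested and 0.03 over all genes. The 7 basal layer markers had 6 negative differences and 1 positive, of unequal size, where 45.6% of all genes were negative. Lower on both Ovol2 BT arrays were 3 keratins, Krt5 (-0.87), Krt14 (-0.66) and Krt15 (-1.41), and 1 marker was higher, Itgb4 (0.45). Col17a1 (-0.05), Itga6 (-0.09) and Trp63 (-0.21) overlapped between the groups. The basal sums, to which the bright keratins gave most, were 25078 and 26409 on the Ovol2 BT arrays and 38480 and 40250 on the control arrays. Spinous markers had 3 of 5 lower, with sums of 59702 and 57403 on the Ovol2 BT arrays and 61094 and 61820 on the control arrays. Of 10 myeloid markers, 7 were higher on both Ovol2 BT arrays, with sums of 10560 and 12082 on the Ovol2 BT arrays and 9225 and 8546 on the control arrays. Of 8 melanocyte markers, 3 were lower on both, with sums of 7090 and 7444 on the Ovol2 BT arrays and 8065 and 8758 on the control arrays. The part of these cells in the members' values was not tested.

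The Ovol2 BT arrays differed from each other by more than the groups did for 18 of the 30 members, against 71.9% of all genes tested. Against the control mean, the median of the members was -0.01 on Ovol2 BT replicate 1 and -0.20 on replicate 2, where that of all genes was 0.00 and 0.08. Replicate 2 lay more than 0.5 below replicate 1 for 6 members, namely Cers3, Elovl6, Lipk, Lipm, Lipn and Ugcg (20.0%, against 15.5% of all genes). Without Ovol2 BT replicate 1, a fit in which 16.4% of all genes passed, 6 of the 30 members passed in limma. Lipn was higher and Elovl6 (-0.71), Lipk (-0.50), Lipm (-0.90), Sptlc3 (-1.10) and Ugcg (-0.57) were lower. Most of all genes that passed in that fit were lower too. Without Ovol2 BT replicate 2, where 0.716% passed, of the members Lipn passed, and Elovl6 (0.22), Lipk (0.21) and Ugcg (0.26) had the other sign. Markers of other tissues differed between the Ovol2 BT arrays too. The 13 measured liver markers summed to 9789 and 7723 on the Ovol2 BT arrays and 4527 and 4543 on the control arrays, and 10 intestine markers to 10348 and 3068 on the Ovol2 BT arrays and 2156 and 2514 on the control arrays. Of the 9 liver markers tested, 8 were higher on both Ovol2 BT arrays, and of the 4 intestine markers tested, 2 were. The share over all genes tested was 20.1%. Another 4 liver markers and 6 intestine markers lay under the level for testing, among them Fabp1, which was lower on both Ovol2 BT arrays. The intestine sum on Ovol2 BT replicate 1 came mostly from Prap1 (4867, and 528 on replicate 2) and Guca2b (3721, and 617.6 on replicate 2). Liver markers went both ways between Ovol2 BT replicates 1 and 2, with Afp at 1960 and 673.9 but Alb at 415.6 and 1198. The part of these markers in the members' values was not tested.

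**Figure D3:**
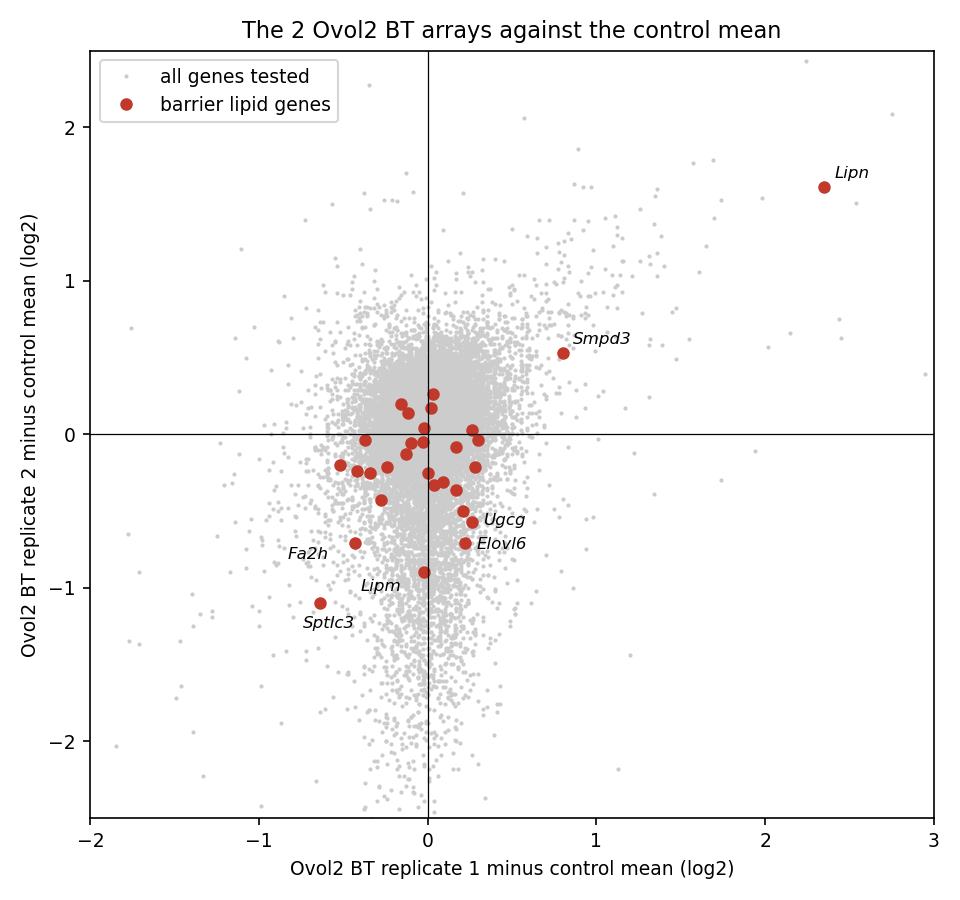
Level on Ovol2 BT replicate 1 (x axis) and on Ovol2 BT replicate 2 (y axis), each minus the control mean in log2(intensity + 16), for the 30 barrier lipid genes tested (red) and all 14953 genes tested (grey, with 22 outside the axes). Lipn and Smpd3 are high on both arrays and Sptlc3 low on both, while Lipm, Elovl6 and Ugcg are low on replicate 2 only. Both axes use the same control mean.

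The wider lipid pathway was described with 83 further genes of sphingolipid, fatty acid, storage and lipoxygenase metabolism and their regulators, of which 77 were measured and 72 tested. None changed over all genes tested in limma. At an unadjusted p under 0.05 there were 3 higher and 1 lower (5.56%, against 4.23% of all genes). Their median difference was 0.08.

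The 4 genes came from 4 of the lists. Alox12e, an epidermal lipoxygenase, had 1005 and 1098 on the Ovol2 BT arrays and 638.8 and 400.2 on the control arrays (1.03, SE 0.27, limma adjusted p = 0.789). It lies between Alox12 and Alox15 on chromosome 11, whose differences were -0.37 (SE 0.17) and 0.40 (SE 0.18), while Aloxe3, Alox12b and Alox8 are neighbours elsewhere on that chromosome. Lipe, the hormone-sensitive lipase of fat cells, had 1324 and 1672 on the Ovol2 BT arrays and 998.7 and 828.4 on the control arrays (0.70, SE 0.22, adjusted p = 0.906). The 9 measured adipocyte markers summed to 4087 and 5072 on the Ovol2 BT arrays and 4261 and 3809 on the control arrays. Of the 6 tested, 3 were higher on both Ovol2 BT arrays, against 20.1% of all genes tested. The part of adipocytes in the Lipe value was not tested. Spns2, an exporter of sphingosine phosphate, read 2529 and 2240 on the Ovol2 BT arrays and 1700 and 1663 on the control arrays (0.50, SE 0.16, adjusted p = 0.906). Hacd3, a dehydratase of fatty acid elongation, was lower on both, with 1226 and 1449 on the Ovol2 BT arrays and 2152 and 2079 on the control arrays (-0.66, SE 0.18, limma adjusted p = 0.815). The 7 lipid regulators tested, among them the fatty acid receptors of the Ppar family, had a median of 0.11 and none with an unadjusted p under 0.05.

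**Figure D4:**
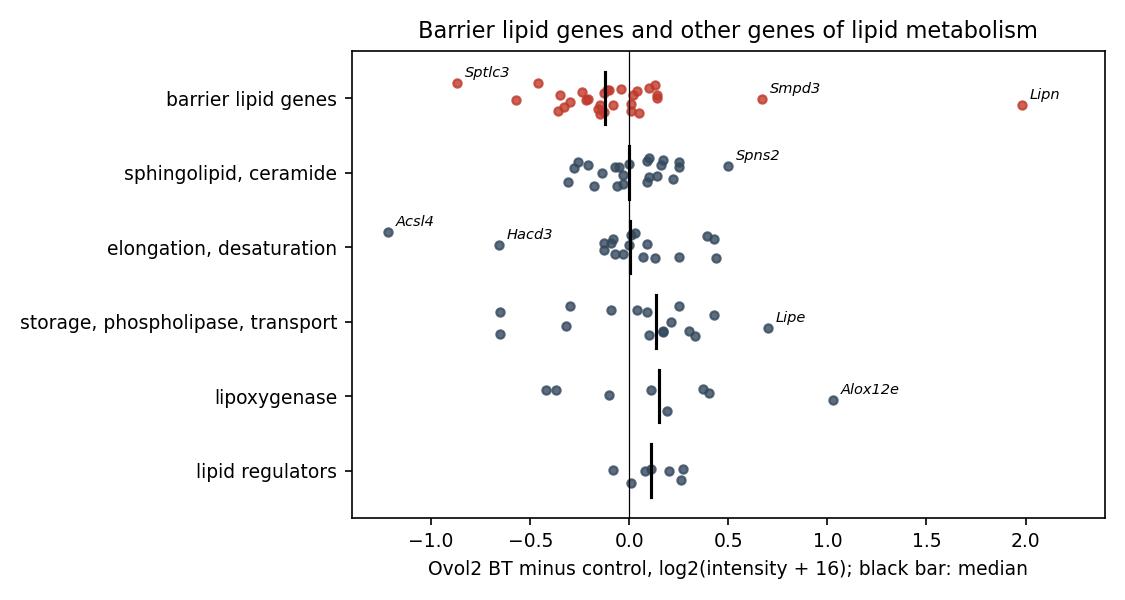
Difference between Ovol2 BT and control skin (x axis, log2(intensity + 16)) for the tested barrier lipid genes (red) and 5 lists of other lipid genes (dark); each point is a gene, spread vertically for legibility, and black bars are medians. Lipn at 1.98 and Alox12e at 1.03 lie highest and Acsl4 at -1.22 lowest, the last with 560 and 148.5 on the Ovol2 BT arrays and 641.6 and 771.1 on the control arrays.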

How the data were processed

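Total RNA of skin was hybridised to 4 arrays. The intensity values, linear and 1 per probe set and array, were made by the authors with Affymetrix Expression Console 1.1.1 and PLIER 2.0, per the submitters' processing notes; the normalisation between arrays and the build used to place the probe sets are not given in these labels. Of 35557 probe sets, 21789 had 1 gene symbol, 1621 had several and 12147 had none listed; the last 2 kinds named no gene. Symbols were updated by Entrez number through RefSeq (GRCm38.p6), which matched 21698. Arrays give no read depth; their number limits the precision.

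All tests used log2(intensity + 16); the added 16 understates differences of dim genes. The brightest probe set of a gene was used, and genes under the 25th percentile of the mean were left out, which kept 14953. limma 3.58.1 in R 4.3.3 (lmFit, eBayes with trend, two-sided) fitted Ovol2 BT minus control, on 2 residual degrees of freedom and a prior of 3.45, and p was adjusted over all genes tested by Benjamini-Hochberg at 0.05. Fits without an array kept the same genes. The steps were tested on simulated data. Replicates are separate pools of 2 mice.

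The members, the lists and the tests were chosen with earlier results of these data known. All 33 members were accounted for, with values by array for those with a difference of at least 0.5 or an unadjusted p under 0.05 and for examples of each role; of other lipid genes, those with an unadjusted p under 0.05 were named, and further ones after their values were seen.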

Additional observations from a re-analysis of the deposited data

How the results depend on the processing

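With 14 alternatives (13 planned, 1 added after seeing the data), the count of 0 members changed held in all but 3, each of which called Lipn. With the replicate block it was 1 (Lipn, 1.98, adjusted p = 0.0359) and 9 genes changed in all; leaving out each array in turn gave between 0 and 6 members, between 0 and 12 of the other lipid genes and between 4 and 2453 genes. The deviations of same-numbered arrays from their group means correlated at -0.172 over genes, so the numbers were not taken as pairs in the main fit. The replicate number did go with Y-linked signal in both groups, so the replicate block also sets apart arrays with and without that signal. With the crossed replicate block, the 1 added, 5 genes and 0 members changed. The count of all genes changed was 10 with median centring and 0 with a variance without trend, where 601 genes had an unadjusted p under 0.05. Members at an unadjusted p under 0.05 numbered between 1 and 11 and the members' median lay between -0.20 and -0.01 when arrays were left out, so both depended on single arrays; the cause was not tested. A filter at the 50th percentile left Lipn untested; it lay between 1.52 (offset 64) and 2.42 otherwise. Dim genes such as Degs2, Fa2h and Elovl3 carry less signal over background, and no detection values were used here. Lipn was dim on the control arrays too (99.8 and 46.7). The size of its difference thus depended on the offset, with 2.21 at offset 1 and 1.52 at offset 64.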
